A study of Mus musculus with 4 samples.

Results

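Bone morphogenetic protein (BMP) ligands and the proteins that restrain them were followed in C2C12, an established line of mouse myoblasts whose cells exit the cycle and form myotubes in low serum. The members were 4 ligands (Bmp2, Bmp4, Bmp6 and Bmp7), the protease Bmp1, the secreted antagonists Nog, Chrd and Grem1, and the membrane pseudoreceptor Bambi. They were taken as every non-control probe whose gene name in the scanner file was 1 of these 9 symbols, which gave 13 of the 41174 probes on the array. Both groups were C2C12 cells differentiated for 6 days after reaching 80% confluence. The untreated cultures received no factor, and the treated cultures received recombinant human follistatin 288 at 200 ng/ml every 24 h. The medium held 2% horse serum per the growth protocol and 10% per the source names. Each of the 4 replicates, called biological replicates in the labels, was 1 two-colour array, on which the Cy3 channel held the follistatin-treated and the Cy5 channel the untreated sample. No array had the dyes the other way round, so an effect of the dye on a probe cannot be told apart from an effect of follistatin.

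BMPs are secreted dimers of the transforming growth factor beta superfamily that bind pairs of type I and type II receptor kinases and signal through Smad1, Smad5 and Smad9. Noggin, chordin and gremlin hold the ligand outside the cell, and Bambi resembles a type I receptor without a kinase domain. C2C12 cells are a classical system for this pathway, because added BMP2 turns them from the myotube fate towards an osteoblast-like one. Follistatin is best known for trapping activins and myostatin, and it also binds several BMPs with lower affinity.

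Each probe is a designed oligonucleotide of 60 bases, and the first 30 bases are shown for 5 of the 6 probes with signal on every array, because most of the measurements below rest on them. They are written 5′ to 3′ as deposited, in lower case throughout since no stretch is singled out.
Bmp4 probe A_51_P383741: gtccaggaagaagaataagaactgccgtcg
Bmp1 probe A_51_P488646: cacactgtattgtgtatagccggtgtccct
Bmp1 probe A_52_P299921: cggggacgcccccaccagctcaaattccga
Chrd probe A_51_P215975: cagtgctgtcccgtgtgtccagagaaacaa
Grem1 probe A_52_P481957: tcctaaattaattcacttgaccgcgggtgt
In mm9, the build of the file headers, the Bmp4 probe lay at chr14:47003802-47003861 on the minus strand. The Grem1 probe lay at chr2:113589227-113589286, also on the minus strand. The Bmp1 probes lay on the minus strand at chr14:70874552-70874611 and chr14:70886652-70886711, with 12100 bases between their starts. The file assigns the former to transcript variant 1, an mRNA, and the latter to variant 2, annotated as a non-coding RNA. These variants serve below only as names of the probes. Whether either probe detects its variant alone was not tested. The Chrd probe ran along the plus strand from 20739049 to 20739221 of chromosome 16, a span of 173 bases for 60 probe bases, so its match to the genome is interrupted. Which of the other probes lie in coding or untranslated exons was not analysed here.

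Levels are fluorescence intensities after background correction and normalization within each array, with an offset of 50 added, so that a probe without signal reads about 60. A probe was called above background where the scanner software's flag was set on a share of at least 0.5 of its usable spots. It was tested if 3 or more of the 4 arrays were so called in 1 and the same channel. By this rule 27016 probes were tested, among them 9 of the 13 member probes, and 31 of the 27016 had no usable spot on 1 or more arrays. Levels of different probes were not compared with each other. Levels were not scaled between arrays, so an overlap of levels between the groups does not use the pairing of channels within an array. Per channel and array, 61.1% to 69.4% of non-control spots were above background. The ratios of replicates 2 and 3 correlated across probes at r = 0.85, against -0.015 to 0.29 for the other 5 pairs of arrays. Replicates 1, 2 and 3 shared a slide and replicate 4 lay on another. All errors and p-values with n = 4 count the arrays as independent, which was not shown for replicates 2 and 3. All 8 muscle markers, such as Des, Myog and Ckm, were above background in both channels on every array. Their ratios differed between arrays: Ckm was at 1.01, -0.78, -1.19 and -0.77 and Des at 1.75, -0.057, -0.38 and -0.89 on replicates 1 to 4. Myod1, Myh3, Acta1, Tnnt3 and Mymk were also positive on replicate 1. Their other ratios were negative, except Tnnt3 on replicate 2 and Mymk on replicate 4. Myog was negative on all 4 arrays, at -0.12, -0.43, -0.50 and -0.49. Signal in both channels of every array was also found for 4 of 5 fibroblast, 3 of 5 cartilage and 2 of 4 epithelial markers, and for 0 of 5 adipocyte, 1 of 4 endothelial and 2 of 4 blood markers. The summed fibroblast level was 18179 to 21555 untreated and 16953 to 21724 treated, and the cartilage level 8069 to 10108 and 10032 to 14456. Among the fibroblast markers, Dpt had a mean log2 ratio of 0.69 and was positive on all arrays. Pdgfrb had a mean of -0.16 and was negative on all arrays. Lum and Pdgfra had means of 0.45 and 0.23 with ratios of both signs, and Thy1 was untested. The cartilage markers went different ways: mean log2 ratios were 0.52 for Col2a1, -0.077 for Acan and -0.73 for Sox9, and Comp and Matn1 were untested. The brightest probes of Adipoq, Pecam1 and Ptprc, markers of fat, endothelial and blood cells, were never above background. Tek, also an endothelial marker, and Cd68 and Cd3e, also blood markers, had signal in both channels on every array. The summed level of the 4 blood markers was 335 to 382 untreated and 327 to 367 treated. Of 6 osteoblast markers 4 had signal in both channels throughout, and Ibsp had none. Their summed level was 1033 to 1262 in untreated and 1312 to 1891 in follistatin-treated RNA, and the markers did not move together. Phex, an osteocyte protease, had ratios of 0.62 to 1.33. Dmp1, which was tested but was not above background in both channels on every array, was also positive on all arrays, at 0.051 to 0.34. The osteoblast factor Sp7 and the osteocyte product Sost had means of 0.011 and -0.084, and osteocalcin (Bglap) was at 0.37, -0.85, -0.46 and 1.03. The part of these markers in the BMP results was not tested.

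No member passed the test. The log2 ratios of follistatin over untreated ran from -0.60 for Grem1 to 0.61 for a Bmp1 probe, and limma's adjusted p was 0.251 or higher for all 9 tested member probes. The same test called 0 of all 27016 probes (0%) after Benjamini-Hochberg adjustment, with 0.0991 as the smallest adjusted p. Without adjustment 5159 probes had a limma p under 0.05. At an unadjusted p under 0.05 limma gave 1 of the 9 member probes, beside 19.1% of all probes tested. That probe was on the higher side, with 8.57% of all probes, and 0 members were on the lower side, with 10.5%. No tested member probe had a mean past 1.6-fold in either direction, against 5.32% of all probes. The median log2 ratio was 0.038 over the 9 member probes and -0.0029 over all probes tested, with 5 member probes positive and 4 negative and 49.5% of all probes positive. The Bambi probe A_51_P248819 was the single tested member probe with 1 sign on all 4 arrays, a property of 27.3% of all probes tested. Of the tested member probes, 6 had signal in both channels of every array: those of Bmp4, Nog, Chrd and Grem1 and both of Bmp1. The remaining 7 of the 13 probes, for Bmp2, Bmp6, Bmp7 and Bambi, stayed near the level of a probe without signal.

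**Figure D1:**
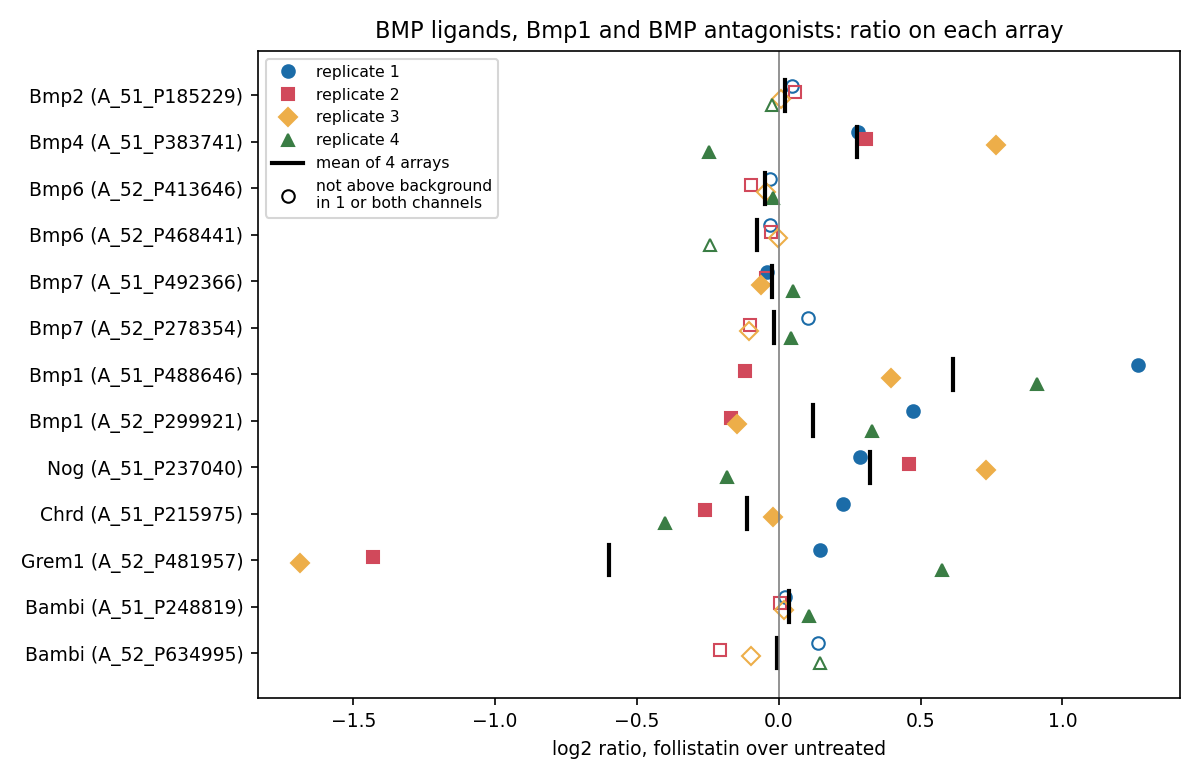
Log2 ratio of follistatin over untreated for the 13 member probes on each of the 4 arrays, with the mean as a black bar and open symbols where a channel was not above background. Grem1 spreads from -1.69 to 0.57, while the probes of Bmp2, Bmp6, Bmp7 and Bambi stay between -0.24 and 0.15.

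Bmp4 was the ligand with a clear signal. This close relative of Bmp2 directs dorsoventral patterning and bone formation, and in muscle it acts on progenitor cells. Its untreated level was 272, 258, 313 and 574 on replicates 1 to 4, and its follistatin-treated level was 329.6, 319, 533 and 484. The treated level was thus higher on replicates 1, 2 and 3 and lower on replicate 4, and the ranges of both groups overlapped. The log2 ratios were 0.28, 0.31, 0.77 and -0.25, with a mean of 0.28 (SE 0.17, n = 4, limma adjusted p = 0.425), a 1.21-fold difference. The 95% interval of the mean on the log2 scale, from -0.16 to 0.71, includes 0 and reaches 1.64-fold. Replicate 4 had both the only negative ratio and the highest untreated level of this probe, although levels were not scaled between arrays. Without replicate 4, which leaves the arrays of slide 1, the mean was 0.45 (limma adjusted p = 0.135). Without replicate 3 it was 0.11.

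The Bmp4 probe was printed 10 times on the array, which gives the noise between spots but not that of labelling, hybridization or culture. On replicate 1 the 10 spots lay between 0.18 and 0.34, and on replicate 2 between 0.21 and 0.40. On replicate 3 they lay between 0.68 and 0.88, and on replicate 4 between -0.33 and -0.11. Spots of 1 array had an SD of 0.044 to 0.074, against an SD of 0.41 between the arrays. Replicates 2 and 3 differed by 0.46 at this probe, with a standard error of 0.028 from the spots. Of 180 tested probes with repeated spots, 124 differed between replicates 2 and 3 by more than 2 such errors. As these errors leave out labelling and hybridization, this count does not show whether the 2 arrays came from separate cultures or RNA, which was not tested.

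**Figure D2:**
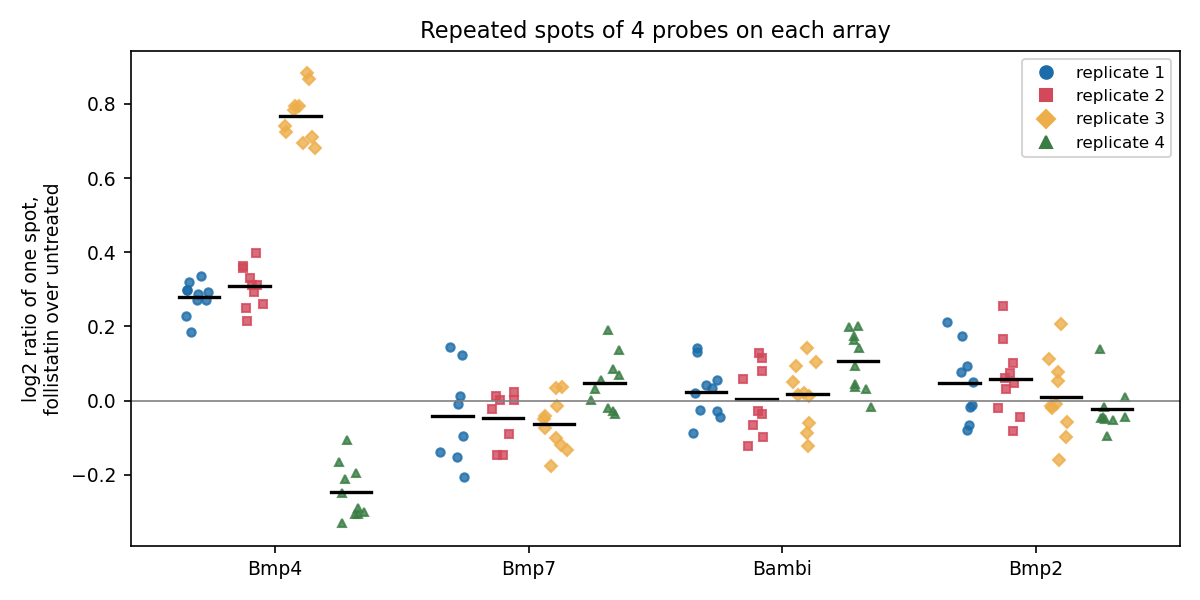
Log2 ratio of every usable spot of the 4 member probes that were printed 10 times, by array, with the mean as a black bar. The spots of Bmp4 on replicates 3 and 4 stand apart from each other and from those of replicates 1 and 2, which overlap, and the spots of Bmp7, Bambi and Bmp2 lie around 0.

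The other ligands gave little or no signal. Bmp2, the osteogenic ligand used on these cells, was above background nowhere, in either channel of the 4 arrays. Its levels were 59.1 to 62.2 in untreated and 61.2 to 62.7 in treated cells, and its mean log2 ratio of 0.023 ± 0.037 (SD, n = 4) therefore bounds nothing. Bmp6, which regulates hepcidin in the liver, had 2 probes, and neither was tested. The Bmp6 probe A_52_P413646 was above background in untreated RNA on 2 arrays and in treated RNA on 1, with ratios of -0.099 to -0.020. Probe A_52_P468441, whose 60 bases span 15144 bases of chromosome 13, was above background in untreated RNA on 2 arrays and in treated RNA on 0. Its ratios were -0.032, -0.029, -0.0020 and -0.24, so the mean of -0.076 rests on replicate 4. Bmp7, a ligand needed for kidney and eye development, had 2 probes that were both tested. The probe with 10 spots had levels of 73.4 to 79.2 untreated and 71.1 to 81.5 treated, and a mean ratio of -0.025 (SE 0.083, limma adjusted p = 0.890). The other Bmp7 probe was at -0.015 (SE 0.090, limma adjusted p = 0.941), and it passed the filter through the untreated channel alone, on 3 arrays. The levels of both Bmp7 probes sit so close to the offset that these ratios understate any change. The processed signals of the scanner software gave means of -0.14 ± 0.24 for the 10-spot probe and -0.38 ± 0.60 for the other (SD, n = 4).

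Bmp1 showed the highest mean ratio of the members, but by 1 of its 2 probes. Despite its name Bmp1 is no ligand of this family: it is a metalloprotease that trims the C-terminal propeptide of fibrillar procollagens and cleaves chordin, which frees bound BMPs. At probe A_51_P488646 the untreated level was 812, 1362, 1794 and 1239.9 on replicates 1 to 4, and the treated level 1953, 1254, 2360.3 and 2333. Treated cells were higher on replicates 1, 3 and 4 and slightly lower on replicate 2, and the groups overlapped. The log2 ratios were 1.27, -0.12, 0.40 and 0.91, with a mean of 0.61 (SE 0.24, n = 4, limma adjusted p = 0.251) or 1.53-fold. This was the member probe with an unadjusted p under 0.05 (0.0452 by limma), which 8.57% of all tested probes reached on the higher side. That crossing depended on the processing. Leaving out 1 replicate at a time, limma's unadjusted p ran from 0.00996, without replicate 2, to 0.145, without replicate 1. It was 0.0300 with replicates 2 and 3 averaged and 0.0652 with the slide as a random block. The methods' t-test gave 0.103. The 95% interval of the mean ratio ran from 0.019 to 1.21 on the log2 scale. It was not adjusted for the choice of this probe among the 9 tested.

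The other Bmp1 probe, A_52_P299921, gave a smaller difference. Its untreated level was 328, 392, 481 and 415, and its treated level 456, 349, 434 and 521. It was higher in treated cells on replicates 1 and 4 and lower on replicates 2 and 3, with a mean log2 ratio of 0.12 (SE 0.15, limma adjusted p = 0.677). That mean was 0.0050 without replicate 1, 0.053 without replicate 4, 0.22 without replicate 2 and 0.21 without replicate 3. Taken within each array, the ratio of probe A_51_P488646 (named variant 1) exceeded that of probe A_52_P299921 (named variant 2) by 0.79, 0.048, 0.54 and 0.58. The mean gap of 0.49 ± 0.32 (SD, n = 4) had an exact sign-flip permutation p of 0.125, two-sided, which is the smallest that 4 arrays allow. With both probes averaged, Bmp1 was at 0.37 (limma adjusted p = 0.346). Leaving out 1 replicate at a time moved the mean of the variant 1 probe between 0.40, without replicate 1, and 0.86, without replicate 2. Replicates 1 and 4 alone, a choice made after the data were seen, gave 1.09 (limma adjusted p = 0.750).

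**Figure D3:**
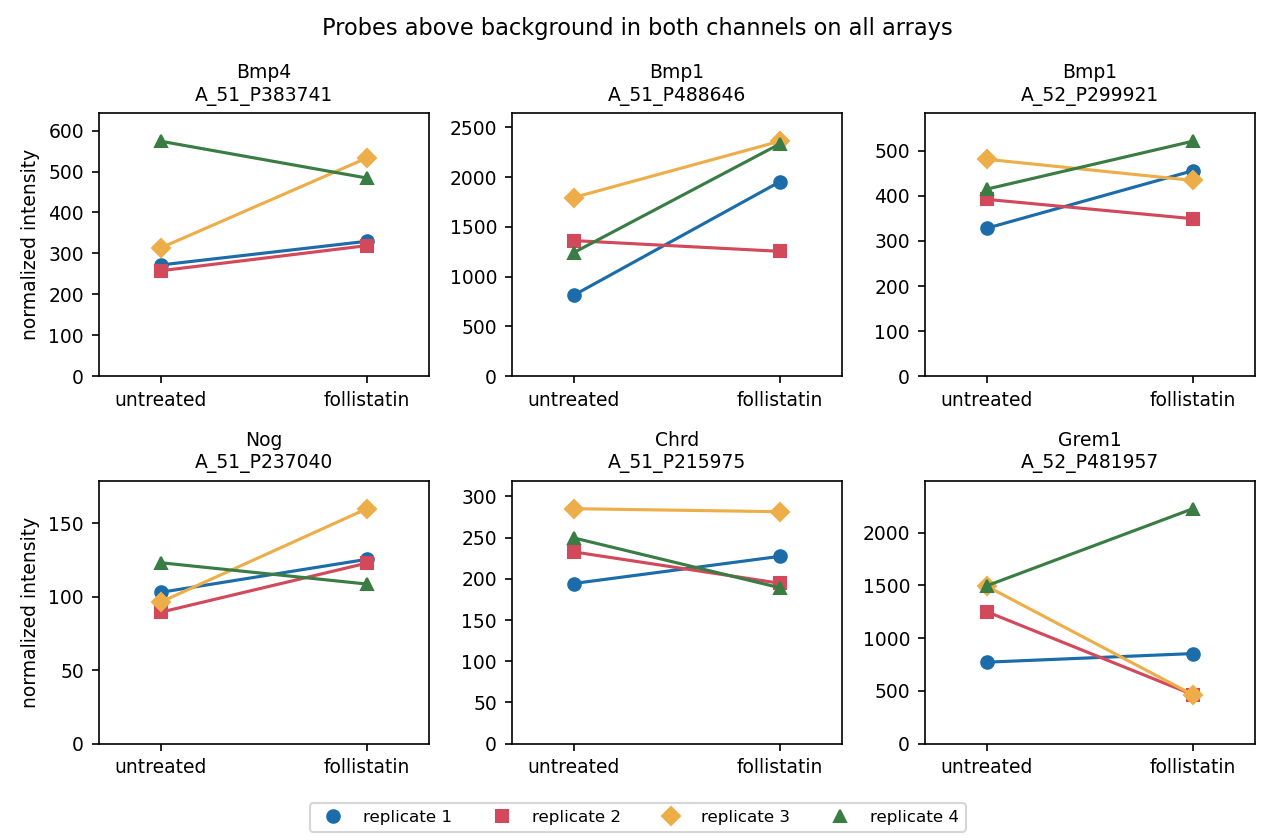
Normalized intensity in untreated and follistatin-treated RNA for the 6 probes with signal in both channels of every array, with 1 line per array and axes from 0. Grem1 was at 1252 untreated and 465 treated on replicate 2 and at 1494 and 463 on replicate 3, but at 1496 and 2227 on replicate 4.

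Grem1 differed most between arrays. Gremlin is a cystine-knot protein that binds Bmp2, Bmp4 and Bmp7 and shapes limb and kidney development. Its untreated level was 772, 1252, 1494 and 1496 on replicates 1 to 4, and its treated level 854, 465, 463 and 2227. The treated level was far below the untreated one on replicates 2 and 3, near it on replicate 1 and above it on replicate 4. The log2 ratios were accordingly 0.15, -1.43, -1.69 and 0.57. Their mean of -0.60 (SE 0.42, n = 4, limma adjusted p = 0.477) was smaller than the SD of 1.13 between arrays, and the 95% interval ran from -1.66 to 0.46. Signs split this way, lower on replicates 2 and 3 and higher on replicates 1 and 4, occurred at 8.09% of the probes tested. A range over the arrays at least as wide as that of Grem1 occurred at 1.57%. The low mean rests on replicates 2 and 3, which resemble each other over the whole array. With these averaged to 1 array, the mean was -0.28 (limma adjusted p = 0.873). Without replicate 3 it was -0.24 and without replicate 2 -0.32, while without replicate 4 it was -0.99 (limma adjusted p = 0.195). With replicates 1 and 4 alone it turned to 0.36.

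Nog, which encodes noggin, the antagonist that caps the receptor-binding faces of BMPs, was detected at a low level. Its untreated level was 103, 89.4, 96.3 and 123, and its treated level 125, 123, 159.8 and 109. As for Bmp4, the treated level was higher on replicates 1, 2 and 3 and lower on replicate 4, a sign pattern of 12.2% of the probes tested. The log2 ratios were 0.29, 0.46, 0.73 and -0.18, with a mean of 0.32 (SE 0.16, n = 4, limma adjusted p = 0.340) and a 95% interval from -0.085 to 0.73. Because the level lies near the offset, the scaling matters here. The processed signals of the scanner software gave 0.51, 1.09, 1.47 and -0.31, a mean of 0.69 ± 0.77 (SD, n = 4), with the same signs. Within slide 1 the mean was 0.49 (limma adjusted p = 0.101), and slide 2 held 1 array. Without replicate 3 the mean was 0.19.

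Chrd, which encodes chordin, the antagonist that Bmp1 cleaves, had ratios of both signs. Its untreated level was 194, 233, 285 and 249.7, and its treated level 227, 195, 281 and 189. The groups overlapped, with treated cells higher on replicate 1, about equal on replicate 3 and lower on replicates 2 and 4. The log2 ratios were 0.23, -0.26, -0.019 and -0.40, with a mean of -0.11 (SE 0.13, n = 4, limma adjusted p = 0.665). The mean was -0.23 without replicate 1, -0.064 without replicate 2 and -0.017 without replicate 4. The 95% interval of the mean ratio went from 0.738-fold to 1.16-fold. Of the 3 secreted antagonists, then, each had another order of arrays, and none was of 1 sign on all 4.

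Bambi, which dampens BMP, activin and transforming growth factor beta signals and is itself a target of the pathway, was barely above background. The probe with 10 spots had levels of 69.3 to 70.9 untreated and 70.1 to 76.3 treated, and it passed the filter through the untreated channel alone, on 3 arrays. Its log2 ratios of 0.024, 0.0033, 0.017 and 0.11 averaged 0.038 (SE 0.083, limma adjusted p = 0.830). The standard error of an array's value from its spots was 0.023 to 0.031. The second Bambi probe was above background on no array. For these dim probes the processed signals scattered more widely, from -2.09 for a Bmp6 probe on replicate 4 to 1.86 for the second Bambi probe on the same array. At such levels a ratio depends on the scale.

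The rest of the BMP pathway was read from 6 lists of 69 genes, of which 51 were tested, and limma called 0 of them (smallest adjusted p = 0.152). The unadjusted p was under 0.05 for 12 of the 51, beside 18.2% of the 14996 genes tested. Among 10 other BMP-class ligands 4 were tested, 1 positive and 3 negative, with a median log2 ratio of -0.28 against -0.0019 for all genes. Gdf7, a ligand of the roof plate and of tendon, was at -0.38 (SE 0.097, limma adjusted p = 0.152) and negative on all 4 arrays. The joint ligand Gdf5 averaged -0.50, with 0.082, -0.85, -1.25 and 0.00040 on replicates 1 to 4, and Bmp8a -0.18, with 0.035, -0.43, -0.34 and 0.023. Both means rest on replicates 2 and 3. Of 15 other secreted antagonists and modulators 10 were tested, 5 positive and 5 negative (median 0.030). The chordin-like protein Kcp was at -0.31, Bmper at 0.28 and the follistatin-like protein Fstl1 at 0.56, each of 1 sign on all arrays. A second Bmper probe was at 0.12.

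Receptors and co-receptors had 4 positive and 6 negative genes among 10 tested (median -0.011). The type I receptor Acvr1 was at 0.31 (SE 0.082, limma adjusted p = 0.156), with a narrow range of 0.29 to 0.37 over the 4 arrays. Another type I receptor, Bmpr1a, was at -0.42, but its second probe was at 0.24, and the co-receptor Rgma was at -0.32. Smads and their regulators had 3 positive and 6 negative genes among 9 tested (median -0.15). The common partner Smad4 was at -0.35, with a second probe at -0.41, and the inhibitory Smad7 was at -0.42. The ubiquitin ligase Smurf1 was at -0.30, with a second probe at 0.16. None of these passed the threshold.

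BMP-responsive genes had 7 positive and 6 negative members among 13 tested (median 0.0030). The ratio had 1 sign on all arrays for 2 of these 13 genes, 5 of 9 Smads and regulators, 4 of 10 antagonists, 3 of 10 receptors, 1 of 4 ligands and 0 of 5 relatives of Bmp1, beside 26.5% of all genes. Runx2, the osteoblast master regulator, was at -0.55 (SE 0.16, limma adjusted p = 0.177), with its other 3 probes between -0.36 and 0.026, the last of them untested. Id1, the best known direct target, was at -1.27, -0.90, -1.08 and 0.24 on replicates 1 to 4. Its mean was -0.75, and its second probe was at -0.68. Dlx3, a homeobox gene of bone and skin, was at 0.18. Among relatives and partners of Bmp1 and the proteases that mature the ligands, 5 of 8 were tested, 3 positive and 2 negative (median 0.10). The convertase Pcsk7 was at 0.26, with a second probe at 0.35, and the procollagen proteinase enhancer Pcolce2 was at 0.36. Furin was at -0.13, with an untested second probe at 0.013. Members and lists lay on both sides of 0, as the genes of the whole array did.

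**Figure D4:**
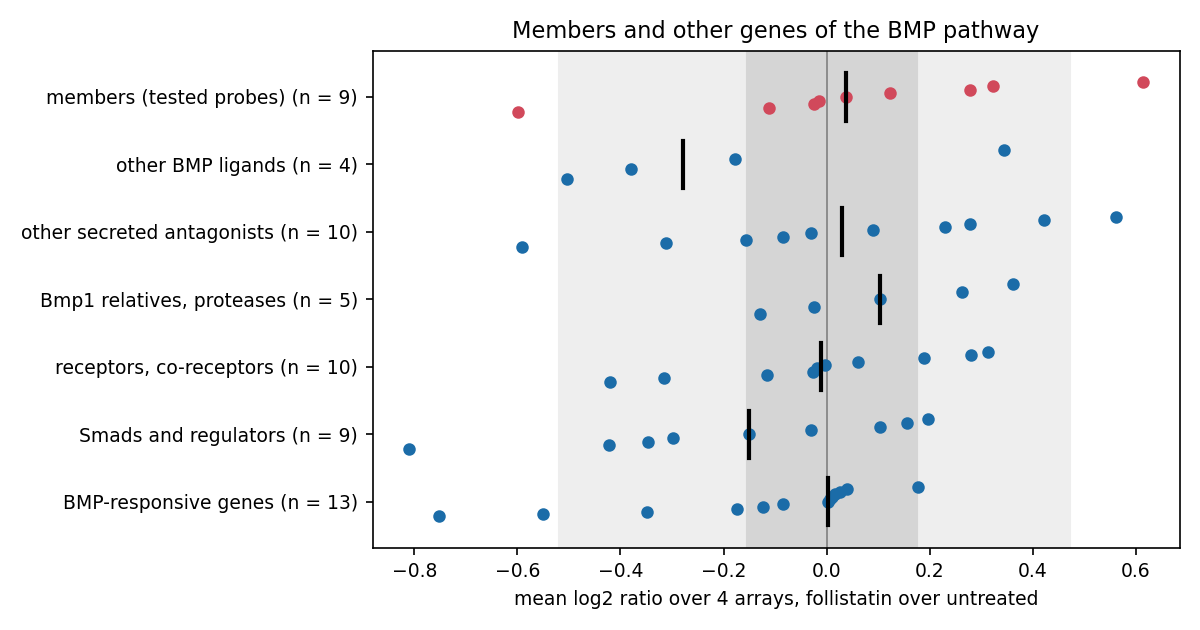
Mean log2 ratio over the 4 arrays for the 9 tested member probes (red) and the tested genes of 6 BMP pathway lists (blue), with the list median as a black bar. The shading marks the middle 50% and 90% of the mean ratios of all 14996 genes tested, which run from -0.15 to 0.18 and from -0.52 to 0.47.

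The genes whose 4 ratios lay nearest to those of a member were found by the root mean square difference over the 4 arrays, among 13922 genes. Nearest to Bmp4 were Zfp512 and Kif7, at 0.050 and 0.057, and nearest to Nog were Ier5 and Zfp512, at 0.025 and 0.047. For Chrd these were Taf1c and Tmco6, at 0.023 and 0.055, and for the variant 1 probe of Bmp1 the nearest was Pkd1, at 0.15. Grem1 was nearest to Plpp3, at 0.067, with ratios of 0.11, -1.48, -1.67 and 0.69, and then to Smarca4, at 0.11. Bmp4 and Nog thus shared the zinc finger gene Zfp512 as a neighbour, with ratios of 0.28, 0.38, 0.77 and -0.17. With 4 values per gene, such likeness is a description of these arrays only.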

How the data were processed

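The authors scanned the arrays and extracted each spot's intensity with Agilent's Feature Extraction. Its version was 10.7.3.1 for replicates 1 to 3 and 10.10.1.1 for replicate 4, per the file headers, while the submitters' processing notes name the former. The deposited intensity columns hold median spot and background brightness and processed, dye-normalized signals. The deposited log10 ratios and the authors' table of log2 ratios served to check direction: each log2 column equalled processed Cy3 over Cy5 (slope 1.00, r = 1.00), with medians of -0.16, 0.17, 0.13 and 0.11.

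Median signals were corrected by normexp (offset 50) on 45018 spots and normalized by loess (span 0.3, 4 iterations, control spots at weight 0) with limma 3.58.1 in R 4.3.3. Outlier spots were left out, and spots of a probe averaged. Ratios were tested against 0 with lmFit and eBayes, adjusted by Benjamini-Hochberg at 0.05 over all tested probes. In simulated data with independent arrays, this test recovered 24 of 50 planted log2 changes of 1 and 23 of 50 of -1. It recovered 40 of 50 changes of 2 and 44 of 50 of -2. The likeness of replicates 2 and 3 was not simulated. Lists used the brightest tested probe per gene and symbols updated through RefSeq (GRCm38.p6). Named are all members, 3 genes of smallest p per list, 2 nearest genes per detected member and the non-muscle markers, chosen after their values were seen; nearest genes exclude symbols that are only clone, locus or Riken names. Members and lists were chosen with earlier results of these data known. Alternatives covered scaling, background, filters, probe averaging, left-out replicates, slide and the methods' t-test. The sequence of 1 probe and 1 nearest gene are not reported here.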

Additional observations from a re-analysis of the deposited data

Results flagged for a closer look

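The ratio of the Bmp6 probe A_52_P468441 on replicate 4, -0.24, lay far from the other arrays, which were between -0.032 and -0.0020. On that array the probe was above background in the untreated channel only. It was the single case among 31 sets of 4 ratios examined (13 member probes and 18 pathway genes), and chance marks about 1 set in 20.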

How the results depend on the processing

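Over 15 alternatives the member ratios gave 182 values, of which 14 changed sign: 8 for the untested second Bambi probe (0.011 to 0.624, against -0.0060), 5 for Bmp7 and 1 for Grem1. In 8 cases an untested dim probe moved by more than its SD between arrays. No member probe passed the threshold in any of them, and all probes gave 0 calls except for 2 lower with the processed signals as given and 2 lower with these median-centred. The processed signals moved the dim probes most. The median of the tested member probes was 0.20 with the stricter filter that keeps 6 member probes, and 0.0050 to 0.049 leaving out 1 replicate at a time. With replicates 1 and 4 alone, a fit added after seeing the data, Grem1 turned to 0.36, the 10-spot Bmp7 probe to 0.0040 and the other Bmp7 probe to 0.073. That Bmp7 probe was also at 0.013 without replicate 2, 0.015 without replicate 3 and 0.014 with both averaged, and ranged from -0.055 to 0.015 when 1 replicate was left out; the cause was not tested. The slide as a random block (correlation 0.14) changed no call, and the methods' t-test called 0 probes (3735 unadjusted). Signal near background limits Bmp2, Bmp6, Bmp7 and Bambi.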
